A study of Mus musculus with 15 samples.

Results

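The comparison described here was the difference of differences between 2 days of epiblast-like cell (EpiLC) induction in mouse embryonic stem cells of the E14TG2 line. For every gene, the effect of an Atg7 knockout (KO) at day 4, as KO minus control, was set against the effect at day 2. The members were 12 of the 15 poly(A) RNA-seq libraries of the series, 3 each of control day 2, KO day 2, control day 4 and KO day 4; the 3 libraries of undifferentiated cells were left out of the main fit. Before induction all cells had been kept on inactivated mouse embryonic fibroblasts with knockout serum replacement, LIF, PD0325901 and CHIR99021. In all 4 groups the cells were then moved to fibronectin in N2B27 that held serum replacement, activin A (at 20 ng/ml) and, at 12 ng/ml, bFGF. The labels give the genotype as Control or Atg7 KO only; the sources used here do not say how the allele was made or whether the KO line is 1 clone. Whether replicates were grown as separate cultures is not recorded in the labels; p-values then reflect only the spread among these libraries, which may be technical.

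Macroautophagy encloses cytoplasm, organelles or selected proteins in a double membrane and delivers them to the lysosome. Atg7 is the E1-like enzyme that activates the Atg12 and Atg8 family conjugation systems on which the growing membrane depends. During EpiLC induction, naive pluripotent cells lower transcription factors such as Nanog and Klf4 and raise formative genes such as Otx2, Fgf5 and Pou3f1. The rewiring of metabolism, the cell cycle and DNA methylation runs alongside this change. A KO effect that is equal at both days gives a difference of 0 on the log2 scale. A positive difference means that KO over control was higher at day 4 than at day 2, and a negative one that it was lower.

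The libraries held 14059237 to 23371546 counted reads, and TMM normalization factors ran from 0.985 to 1.02. Expression is given as CPM, a gene's share of the counts of its library scaled with TMM and not corrected for length, so levels are compared within a gene only. Atg7 transcript was lower in the KO at both days and not absent: 14.9, 12.4 and 14.4 CPM in the control libraries of day 2, 7.09, 7.77 and 7.36 in the KO of day 2, 19.6, 20.3 and 19.9 in the control of day 4 and 12.8, 12.9 and 10.6 in the KO of day 4. The 2 KO effects on Atg7, -0.90 and -0.71 on the log2 scale, did not differ past the test (difference 0.19 ± 0.15 SE, edgeR adjusted p = 0.31). The sources used here do not name the deleted part, so the count over the whole gene does not check the deletion itself. Of the markers of the labelled cell type, Fgf5 averaged 0.654 CPM in control and 1.68 CPM in KO cells at day 4, and the naive gene Zfp42 averaged 308 and 380.1 CPM. These are single markers, and Fgf5 was near the floor. Between the days, 14 of 22 formative and primed genes rose and 6 fell in control cells, against 14 and 3 in KO cells. Of 21 naive genes 7 rose and 11 fell in control cells, against 10 and 11 in KO cells. Over all tested genes 37% rose and 38.2% fell in control cells, against 33.7% and 37.4% in KO cells. Summed over the 30 fibroblast and feeder markers found in the files, expression was 1069 to 1192 CPM in control day 2, 1408 to 1934 in KO day 2, 1087 to 1157 in control day 4 and 982 to 1115 in KO day 4. Taken one by one, 20 of the 29 tested markers were higher in the KO at day 2 and 18 at day 4, and 2 and 5 were lower. Of all tested genes, 27.3% were higher and 26.6% lower in the KO at day 2, and 24.5% and 24.5% at day 4. None of those markers was at 0 throughout a group. Col1a1, chosen after its values were seen, averaged 87.8, 209, 12.4 and 38.8 CPM in the same order; its 2 KO effects, 1.25 and 1.64, did not differ past the test. Some libraries stood apart from their group. Replicate 1 of control day 4 was low for many hypoxia-inducible genes, and replicate 3 of control day 4 was high for Cebpb, Hmga1, Tcf15 and Map1lc3a. The values are given beside those genes. Replicate 2 of KO day 2 had the high feeder sum of 1934 CPM, against 1408 and 1535 CPM in replicates 1 and 3. Genes of chromosome 18 moved together, with a median difference of -0.62, and are marked where they are named. In bulk RNA, fewer cells of a type and less RNA per cell cannot be told apart.

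The knockout effect differed between the days for 7463 of the 15569 genes tested, or 47.9%. It was higher at day 4 for 3618 genes (23.2%) and lower for 3845 (24.7%), by edgeR's quasi-likelihood test at an adjusted p under 0.05; 1645 of these differences were 2-fold or larger. At day 2 alone, 27.3% of genes were higher and 26.6% lower in the KO. The corresponding shares at day 4 were 24.5% and 24.5%. Between the days, 37% of genes rose and 38.2% fell in control cells, against 33.7% and 37.4% in KO cells. Over all tested genes the median difference was -0.032, with quartiles at -0.42 and 0.33. The shares of 23.2% higher and 24.7% lower are the background for the list counts below.

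The difference took several forms. For 1771 genes the KO effect turned, meaning that it passed the test at both days with opposite signs; 962 of these went from lower to higher in the KO and 809 from higher to lower. It grew for 1154 genes, where both effects had the same sign and the larger, at day 4, passed the test, and it shrank for 1265, where the larger was that of day 2. The remaining called genes had effects of opposite sign of which at most 1 passed the test: at day 2 alone for 1681, at day 4 alone for 1369 and at neither day for 223. The turned genes numbered 75 with the collagen level of each library as a covariate and 13 when each effect was tested against a 1.5-fold change. Collagen level itself changed with day and genotype, so the covariate overlaps with the groups and widens the error of each KO effect. With it, 3611 genes were called for the KO at day 2 against 8388 without, but 7535 differences against 7463. The 75 therefore does not tell how many turned effects go with fibroblast content. Read by genotype, 24.6% of the called genes changed between the days past the test in control cells alone, 17.2% in KO cells alone and 12.8% in opposite directions. In 28.7% both genotypes moved the same way with the larger change in control cells, and in 15.7% with the larger change in KO cells. Across all tested genes the effects at the 2 days correlated with Pearson's r = 0.287, a description over genes, which are not independent replicates.

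**Figure D1:**
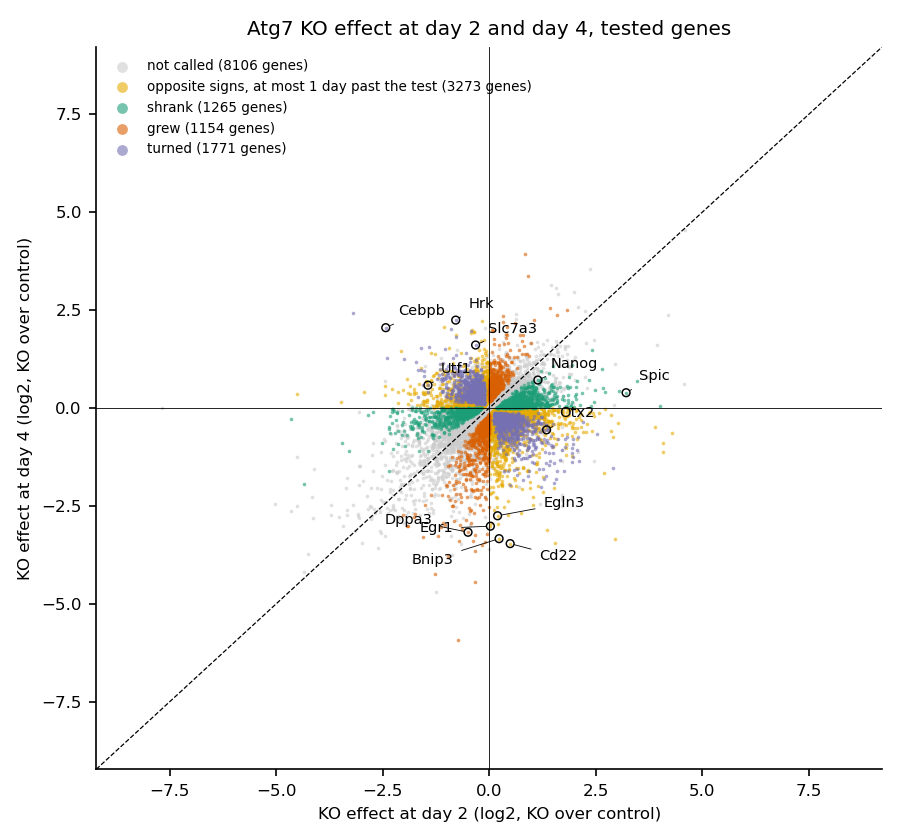
KO effect of each tested gene at day 2 (x axis) and day 4 (y axis), as log2 KO over control; 1 point is 1 gene and the dashed line marks equal effects. Genes whose effect turned (1771, purple) fill the upper left and lower right quadrants, Bnip3, Egln3, Egr1 and Cd22 did not pass the test at day 2 and lie far below 0 at day 4, and Cebpb lies below 0 at day 2 and above 0 at day 4.

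**Figure D2:**
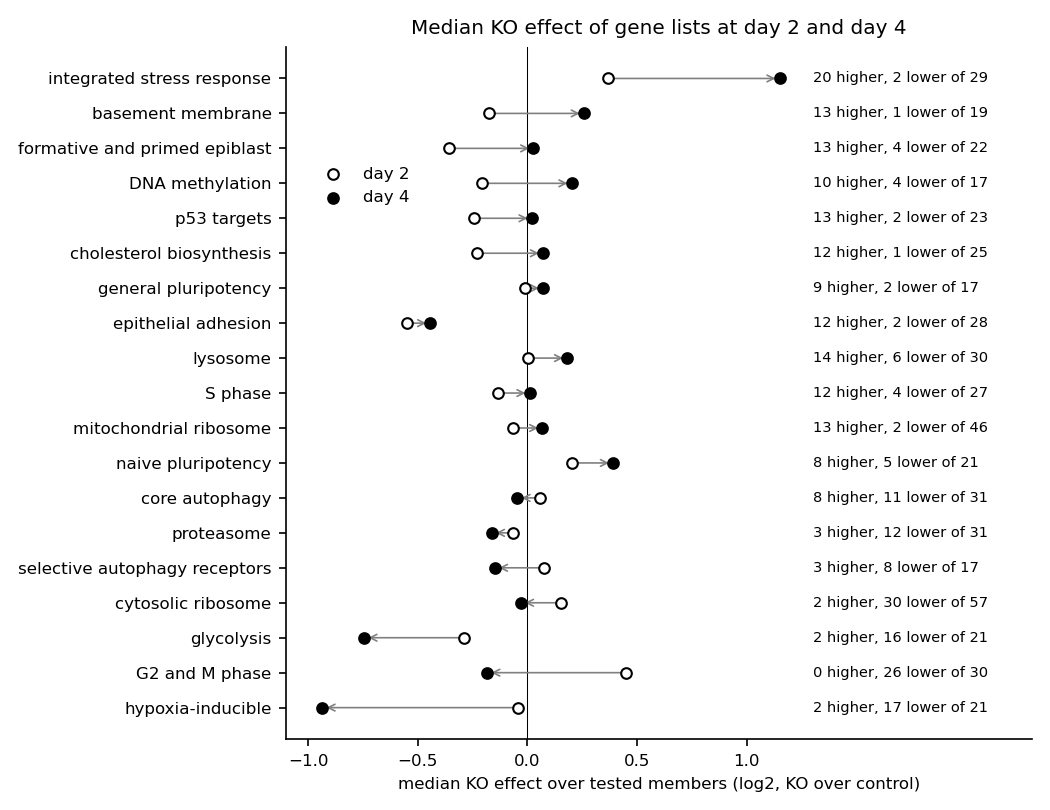
Median KO effect over the tested members of 19 gene lists at day 2 (open) and day 4 (filled), on the log2 scale; the text gives how many members had a higher or a lower effect at day 4. The arrow is longest for the hypoxia-inducible list (17 of 21 members lower) and points from above to below 0 for the G2 and M phase list (26 of 30 lower), while the integrated stress response list moves up (20 of 29 higher).

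Genes induced by low oxygen moved furthest down. Hypoxia-inducible factors bind DNA as pairs of an alpha subunit with Arnt and switch on genes for glucose uptake, glycolysis, lactate export and mitophagy, while prolyl hydroxylases such as Egln3 mark the alpha subunit for destruction. Of 21 tested members of a hypoxia-inducible list, 17 had a lower KO effect at day 4 than at day 2 and 2 a higher one, against 24.7% and 23.2% of all genes. The median difference of the list was -0.90. In control cells 17 of the 21 rose between the days and 2 fell (median 1.02). In KO cells 7 rose and 9 fell (median 0.026). The median KO effect was -0.043 at day 2 and -0.94 at day 4.

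Bnip3 (chr7:138890836-138909519, minus strand, GRCm38), a mitochondrial outer membrane protein that recruits the autophagy machinery, showed the pattern at its widest. It measured 35.5, 36.0 and 36.3 CPM in the control libraries of day 2, 43.1, 43.4 and 40.2 in the KO of day 2, 72.6, 219 and 174 in the control of day 4 and 12.6, 18.9 and 14.4 in the KO of day 4. At day 2 the KO libraries lay slightly above the control libraries without passing the test; at day 4 every control library stood above every KO library, although the control libraries themselves spread widely, with replicate 1 the lowest. The difference was -3.57 ± 0.35 SE (edgeR adjusted p = 6.7e-08). Egln3 (chr12:54178981-54203860, minus strand, GRCm38) followed the same order, with 10.5, 9.63 and 10.9 CPM in control and 11.9, 11.8 and 12.0 in KO cells at day 2, and 23.5, 67.5 and 54.3 in control and 7.52, 7.11 and 6.86 in KO cells at day 4. Its difference was -2.95 ± 0.35 SE (edgeR adjusted p = 7.6e-07). The same low replicate 1 of control day 4 recurred in Egln3 and stood above the KO libraries there too.

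Other members had the same sign. Adm, a vasodilator peptide, had a difference of -3.02 and Ndufa4l2, a mitochondrial homologue of Ndufa4, of -2.94. Ndufa4l2 stood at 2.03, 9.93 and 9.39 CPM in control and 0.185, 0.470 and 0.462 CPM in KO cells at day 4. Ak4, a mitochondrial adenylate kinase, and Kdm3a, a histone H3 lysine 9 demethylase, turned: their KO effects were 0.58 and 0.35 at day 2 and -0.79 and -0.53 at day 4. Ndrg1, chosen after its values were seen, averaged 10.4 and 11.6 CPM at day 2 and 46.4 and 8.06 CPM at day 4, control before KO. The exceptions were Vegfa, the endothelial growth factor, and Ddit4, an inhibitor of mTORC1 that is also on the integrated stress response list. Vegfa was at 53.7, 83.7 and 75.3 CPM in control and 125, 122 and 119.9 in KO cells at day 4, with a difference of 0.64; the difference for Ddit4 was 0.62. Car9 and Higd1a did not pass the test; they were named after their values were seen.

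The transcripts of the factors and of their regulator were read as well; these 4 genes were chosen after their values were seen. Hif1a averaged 211 CPM in control and 278 in KO cells at day 4 (difference 0.43), and Epas1, which encodes the HIF-2 alpha subunit, had a difference of 1.16. Arnt, the shared partner, had a difference of 0.00072 and did not pass the test. With offsets for transcript GC content in each library (GC offsets), the difference of Hif1a was 0.65. Vhl, the substrate receptor of the ligase that removes the alpha subunits, had a difference of -0.40. Protein levels and oxygen were not measured.

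Only the ACGTG form of the core of the hypoxia response element was searched. Both strands of the promoter windows of RefSeq were read (GRCm38.p6, 250 bases before to 50 after each start). ACGTG occurred in a window of 14 of the 17 hypoxia-inducible members with a promoter entry, and in 28% of tested genes with one. Within the list it did not follow the direction of the difference. The 14 held Bnip3, Egln3 and Ak4, which moved down, but also Vegfa and Ddit4, which moved up, and Car9 and Higd1a, which did not pass. Adm and Kdm3a, which moved down, lacked it. Of all tested genes with an entry, 29.9% of genes with a lower difference and 27.9% of those with a higher one held it. A match describes these letters in this window and is no sign of binding. The Bnip3 window (chr7:138909457-138909756, minus strand) holds the palindromic form, which counts once on each strand, and the Egln3 window (chr12:54203825-54204124, minus strand) a single match; capitals mark the motif. They are shown as the promoters of the members whose values are given in full.
Bnip3: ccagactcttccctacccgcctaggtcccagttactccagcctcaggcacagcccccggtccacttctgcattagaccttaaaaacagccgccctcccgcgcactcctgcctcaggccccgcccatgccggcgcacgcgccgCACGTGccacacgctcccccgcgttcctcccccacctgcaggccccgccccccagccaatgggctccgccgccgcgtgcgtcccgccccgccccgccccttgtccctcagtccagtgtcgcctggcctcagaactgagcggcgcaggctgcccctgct
Egln3: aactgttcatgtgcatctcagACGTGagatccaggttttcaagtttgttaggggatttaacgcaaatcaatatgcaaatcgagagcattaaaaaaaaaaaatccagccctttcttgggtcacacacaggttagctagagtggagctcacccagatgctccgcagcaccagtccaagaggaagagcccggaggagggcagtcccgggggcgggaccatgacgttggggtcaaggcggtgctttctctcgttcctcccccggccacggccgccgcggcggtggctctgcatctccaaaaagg

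Glycolysis genes were lower as well; Slc2a1 and Pdk1 are on both lists. Of 21 tested members of the glycolysis list 16 had a lower difference and 2 a higher one, with a median of -0.45; the KO was past the test and lower for 13 at day 2 and for 19 at day 4. Slc16a3, the lactate exporter MCT4, measured 52.8, 49.1 and 50.9 CPM in control and 22.96, 31.4 and 22.97 in KO cells at day 2, then 72.8, 189.9 and 137 in control and 7.83, 12.6 and 8.38 in KO cells at day 4. KO libraries were below control libraries at both days without overlap, by -0.98 at day 2 and -3.78 at day 4 on the log2 scale. Tpi1, triosephosphate isomerase, had KO effects of -0.21 at day 2 and -2.46 at day 4. Slc2a1, the glucose transporter Glut1, Ldha, lactate dehydrogenase A, and Pgk1, phosphoglycerate kinase, were chosen after their values were seen. Their differences were -1.33, -1.30 and -1.35. Ldhb, the heart-type lactate dehydrogenase, moved the other way in level: it was higher in the KO at both days (1.04 and 0.44), so its negative difference is a shrinking rise, not called with all 15 libraries of the series in the fit. Hk1 and Pgam1, lower in the KO at both days, had differences of 0.34 and 0.35, a shrinking loss. With GC offsets the difference of Hk1 was 0.18 and was not called. With all 15 libraries in the fit 10 glycolysis members were lower. Pygl, the liver glycogen phosphorylase, was at 1.54, 1.23 and 1.12 CPM in KO and 11.6, 17.0 and 13.4 in control cells at day 4, against means of 1.98 and 2.10 CPM at day 2.

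Replicate 1 of control day 4 was low across these genes. Summed over the hypoxia-inducible list, expression ran from 2564 to 4447 CPM in control day 4 and from 1642 to 1724 CPM in KO day 4, so the groups did not overlap. Leaving out replicate 1, 2 or 3 of control day 4 gave list medians of -1.14, -0.80 and -0.90, with 18, 17 and 17 members lower. What set that library apart was not tested.

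**Figure D3:**
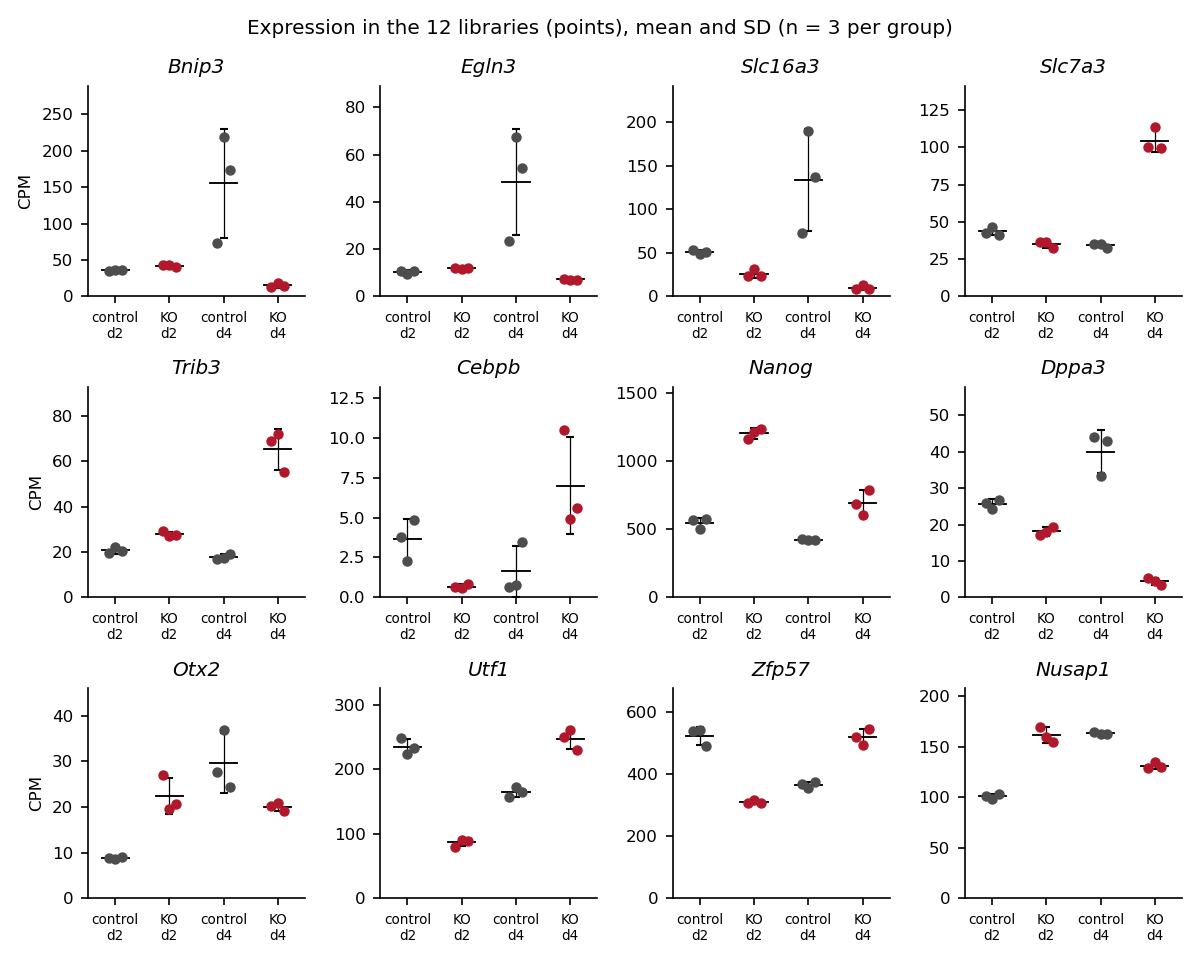
Expression in CPM of 12 genes in the 12 libraries, control in grey and KO in red; bars give the mean and SD of 3 libraries per group. Bnip3, Egln3 and Slc16a3 are high in control day 4 with a low replicate 1, Slc7a3 and Trib3 are high in KO day 4, and Utf1 and Zfp57 are low in KO day 2.

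The integrated stress response moved up. In this response, kinases that sense amino acid shortage, misfolded protein or other stress slow translation and favour that of Atf4, a transcription factor for amino acid synthesis, uptake and tRNA charging genes. Of 29 tested members 20 had a higher KO effect at day 4 and 2 a lower one (23.2% and 24.7% of all genes), with a median difference of 0.77. At day 4, 27 of the 29 were higher in the KO and the other two did not pass the test. At day 2, 18 were higher and 5 lower. The summed list level was 4921 to 5612 CPM in KO day 4, above the 2858 to 3074 CPM of control day 4 and the 3405 to 3505 CPM of KO day 2.

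Slc7a3 (chrX:101079210-101086020, GRCm38), a transporter of arginine and lysine, measured 42.8, 46.8 and 41.5 CPM in control day 2, 36.3, 36.4 and 32.4 in KO day 2, 35.1, 35.2 and 32.7 in control day 4 and 100.4, 114 and 99.9 in KO day 4. The KO was lower at day 2 and higher at day 4, with no overlap at either day. Its difference of 1.93 ± 0.10 SE passed the test (edgeR adjusted p = 3e-11). Slc7a5, a subunit of the large neutral amino acid transporter, had near equal levels at day 2 (-0.08) and a KO effect of 1.36 at day 4. Phgdh, which opens serine synthesis, went from -0.19 to 0.96.

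Trib3, Chac1, Nupr1, Ddit3 and Atf4 were chosen after their values were seen. Trib3, a pseudokinase target of Atf4, measured 19.5, 22.2 and 20.4 CPM in control and 29.1, 26.9 and 27.3 in KO cells at day 2, and 16.9, 17.5 and 19.07 in control and 69.0, 72.0 and 55.1 in KO cells at day 4. The KO libraries lay above the control libraries at both days, and the gap widened by 1.45 ± 0.13 SE (edgeR adjusted p = 2e-08). Chac1, a glutathione-degrading enzyme, had KO effects of 1.81 at day 2 and 2.51 at day 4, and the stress protein Nupr1 of 1.60 and 2.37. The Chac1 difference was not called with GC offsets, with all 15 libraries in the fit or without replicate 3 of control day 2. Ddit3, the factor CHOP, turned from -0.45 to 1.17; its libraries overlapped at day 2. Atf4 itself was higher in the KO at both days, by 0.82 and 0.85, and its difference of 0.03 did not pass the test. Nars and Asns, for charging and making asparagine, were higher in the KO at both days with a slightly smaller effect at day 4, by -0.25 and -0.21. Neither difference was called with all 15 libraries in the fit, and that of Asns was also lost with GC offsets and without replicate 1 of KO day 2. Nars lies on chromosome 18.

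Cebpb, a bZIP partner of Atf4, had the largest increase among the genes named by the rule. It measured 3.78, 2.26 and 4.87 CPM in control day 2, 0.616, 0.558 and 0.843 in KO day 2, 0.677, 0.775 and 3.49 in control day 4 and 10.5, 4.94 and 5.61 in KO day 4. Replicate 3 of control day 4 stood well above the other two libraries of its group but below the KO. The difference was 4.48 ± 0.62 SE (edgeR adjusted p = 5.4e-06), at levels of a few CPM.

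The 8-base core of the composite element bound by C/EBP and ATF factors, TGATGCAA, was searched on both strands of the same RefSeq windows. It occurred for 6 of the 24 list members with a promoter entry (Atf3, Chac1, Nupr1, Slc7a11, Vldlr and Aars). The share was 0.73% of all tested genes, 1.14% of genes with a higher difference and 0.476% of those with a lower one. The windows of Chac1 (chr2:119350992-119351291, plus strand) and Nupr1 (chr7:126625421-126625720, minus strand) are shown with the match in capitals, in both cases on the opposite strand, as list members that hold it.
Chac1: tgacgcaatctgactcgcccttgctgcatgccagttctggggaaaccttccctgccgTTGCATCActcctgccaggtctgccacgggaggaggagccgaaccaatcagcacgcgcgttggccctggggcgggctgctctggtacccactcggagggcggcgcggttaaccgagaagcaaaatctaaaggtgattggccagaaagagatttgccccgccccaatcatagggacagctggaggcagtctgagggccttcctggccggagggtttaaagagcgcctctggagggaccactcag
Nupr1: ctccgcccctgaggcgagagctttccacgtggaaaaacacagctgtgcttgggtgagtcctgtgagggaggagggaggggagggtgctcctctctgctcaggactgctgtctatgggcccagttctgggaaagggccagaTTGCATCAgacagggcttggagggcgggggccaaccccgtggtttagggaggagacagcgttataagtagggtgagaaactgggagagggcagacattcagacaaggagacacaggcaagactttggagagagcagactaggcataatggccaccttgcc

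The unfolded protein response of the endoplasmic reticulum was mixed: of 22 members 11 were higher and 6 lower in difference, with a median of 0.20. The lower count was 3 without replicate 3 of control day 2, without replicate 1 of KO day 4 and with all 15 libraries in the fit. Sdf2l1, an endoplasmic reticulum chaperone cofactor, went from a KO effect of -0.98 to 0.11, and Edem1, which takes part in the degradation of misfolded glycoproteins, from -0.33 to 0.26. The stress sensor Atf6 went the other way, from 0.35 to -0.093.

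Late cell cycle genes were higher in the KO than in control cells at day 2 and mostly lower at day 4. Mitosis depends on cyclin B with Cdk1, Aurora and Polo kinases, kinesins and spindle proteins whose transcripts peak late in the cycle. At day 2, 27 of 30 tested members were higher in the KO and the rest did not pass the test. At day 4, 3 were higher and 20 lower. Of the 30, 26 had a lower difference and 4 did not pass, at a median of -0.60; the effect turned for 18 of them. Between the days 27 rose and 3 fell in control cells (median 0.695), against 15 and 11 in KO cells (median 0.066).

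Nusap1, a spindle microtubule protein, measured 101, 98.2 and 104 CPM in control day 2, 169.7, 159.7 and 154 in KO day 2, 165, 163 and 162 in control day 4 and 129, 134 and 129.8 in KO day 4. Control and KO libraries did not overlap at either day and their order reversed. The difference was -0.99 ± 0.065 SE (edgeR adjusted p = 4e-10). Kif20a, a kinesin of cytokinesis, and Cdc25c, a phosphatase that activates Cdk1, had differences of -1.27 and -1.64; both lie on chromosome 18. Ccnb2 and Cdk1, chosen after their values were seen, had KO effects of 0.13 and 0.045 at day 2 and -0.31 and -0.39 at day 4. Cdc20, Aurkb, Ube2c and Birc5 did not pass the test of the difference.

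S phase genes moved less and the other way, with 12 of 27 higher, 4 lower and a median of 0.18; without replicate 1 or 2 of control day 2, 2 were lower. Ung, a uracil glycosylase, went from -0.59 to 0.66, and Cdt1, which loads the replicative helicase, from -0.28 to 0.51. Prim1, a primase subunit, had a difference of -0.46.

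The cell cycle homology element, searched as TTTGAA on both strands, was found for 19 of the 25 members with a RefSeq promoter entry, against 14.4% of tested genes. The CCAAT box was found for 20 of them, against 43.1%. Among genes with a lower difference 16.1% held TTTGAA, and 11.6% of those with a higher one. The windows of Ccnb2 (chr9:70421505-70421804, minus strand) and Cdk1 (chr10:69352863-69353162, minus strand) show the element in capitals, with 2 matches each.
Ccnb2: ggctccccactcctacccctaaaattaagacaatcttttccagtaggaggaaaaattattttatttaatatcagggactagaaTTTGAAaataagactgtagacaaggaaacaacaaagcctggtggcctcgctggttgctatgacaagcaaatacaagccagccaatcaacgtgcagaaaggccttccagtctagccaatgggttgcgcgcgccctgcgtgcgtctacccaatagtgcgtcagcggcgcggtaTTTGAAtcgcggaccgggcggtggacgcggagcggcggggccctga
Cdk1: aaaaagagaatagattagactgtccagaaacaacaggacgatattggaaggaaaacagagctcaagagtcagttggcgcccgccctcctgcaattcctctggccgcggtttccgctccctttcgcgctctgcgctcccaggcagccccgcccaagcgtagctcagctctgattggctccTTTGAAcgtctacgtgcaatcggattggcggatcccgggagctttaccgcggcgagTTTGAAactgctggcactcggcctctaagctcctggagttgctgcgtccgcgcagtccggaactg

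On the p53 list 13 of 23 were higher and 2 lower, median 0.32; 7 were higher with all 15 libraries in the fit, and 1 was lower without replicate 1 of KO day 4. Mdm2, the ligase that limits p53, was at 393, 422 and 379 CPM in control and 241, 250.4 and 238 in KO cells at day 2, and averaged 336 and 353 CPM at day 4. Trp53 turned from -0.26 to 0.33.

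Naive pluripotency genes did not move as a group. Of 21 tested members 8 had a higher KO effect at day 4, 5 a lower one and 8 did not pass the test, with a median difference of -0.009. The KO was past the test and higher for 11 members at day 2 and for 13 at day 4, and lower for 6 and 4.

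Nanog (chr6:122707489-122714633, plus strand, GRCm38), the homeodomain factor named in the title of the series, measured 565, 503 and 572 CPM in control day 2, 1162, 1218 and 1239 in KO day 2, 427, 421 and 418 in control day 4 and 687, 601 and 789 in KO day 4. KO libraries were above control libraries at both days without overlap. The KO effect fell from 1.14 ± 0.069 SE to 0.71 ± 0.069 SE, a difference of -0.43 ± 0.10 SE (edgeR adjusted p = 0.0011). Tested against a 1.5-fold change this difference was not called. Prdm14, a repressor of lineage and methyltransferase genes, kept KO effects of 1.05 and 1.16, and its difference did not pass the test. Klf2 (0.89 and 0.53) and Nr5a2 (0.71 and 0.47) also did not pass it. Spic, an Ets family factor, had the most negative difference of the list, -2.82: 2.12, 1.97 and 1.59 CPM in control and 17.98, 15.6 and 18.9 in KO cells at day 2, and 0.739, 0.915 and 0.361 and 0.370, 1.23 and 0.990 at day 4.

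Other naive genes had a higher KO effect at day 4. Tbx3, a T-box factor, measured 329, 327 and 322 CPM in control day 2, 311, 307 and 326 in KO day 2, 165, 188 and 177 in control day 4 and 353, 319 and 350.1 in KO day 4. The groups overlapped at day 2 only. The transcript changed between the days by -0.89 in control and 0.12 in KO cells. Klf4 went from a KO effect of 0.24 to 1.10, Tfcp2l1 from 0.21 to 0.81 and Esrrb, an orphan nuclear receptor, from -0.0098 to 0.41. Klf5 turned from -0.35 to 0.72, and Nr0b1, the repressor Dax1, from -0.42 to 0.28. Dppa4 went from -0.71 to -0.16.

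Dppa3 and Zfp57, both of which guard DNA methylation in the early embryo, moved in opposite directions. Dppa3 measured 25.97, 24.2 and 26.7 CPM in control day 2, 17.0, 18.1 and 19.4 in KO day 2, 44.1, 33.2 and 42.9 in control day 4 and 5.30, 4.58 and 3.43 in KO day 4; control cells rose and KO cells fell. Its difference was -2.67 ± 0.17 SE (edgeR adjusted p = 3e-10). Zfp57, a zinc finger protein that holds methylation at imprinted loci, was below control in every KO library at day 2 and above at day 4, with effects of -0.75 and 0.50. Sox15 turned from 0.20 to -1.02. Fbxo15, on chromosome 18, had effects of 0.87 and -0.015.

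**Figure D4:**
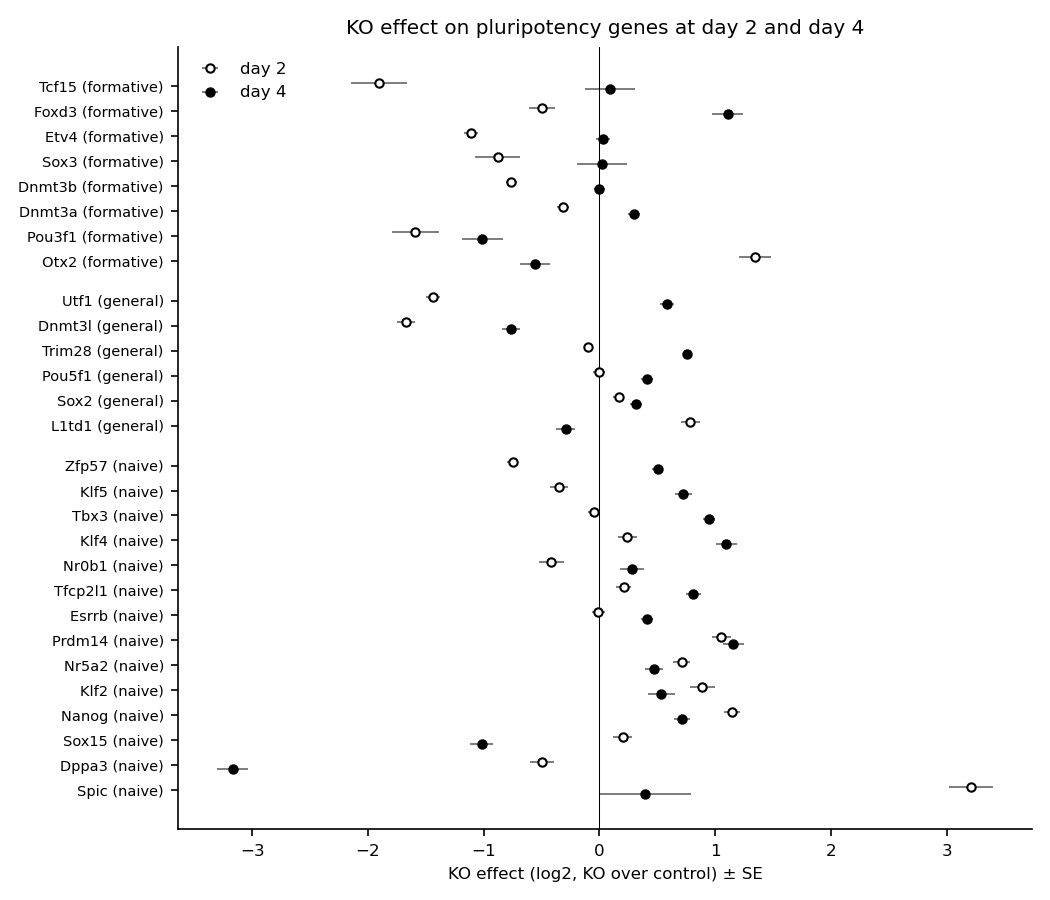
KO effect with its SE at day 2 (open) and day 4 (filled) for 28 naive, general and formative genes, on the log2 scale. Nanog, Klf2 and Nr5a2 are higher in the KO at both days, Tbx3, Klf4, Tfcp2l1 and Esrrb have a higher effect at day 4, Otx2 and L1td1 cross from above to below 0, and Utf1, Zfp57 and Foxd3 cross from below to above 0.

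Among general pluripotency genes 9 of 17 had a higher difference and 2 a lower one, with a median of 0.27. Utf1, a chromatin protein of pluripotent cells, measured 248, 225 and 234 CPM in control and 80.1, 90.9 and 89.6 in KO cells at day 2, and 157, 173 and 166 in control and 249.7, 261 and 230.1 in KO cells at day 4. Its effect turned without overlap at either day, by 2.02 ± 0.083 SE (edgeR adjusted p = 1.3e-12). Pou5f1, the factor Oct4, did not differ past the test at day 2 (-0.0017) and was higher in the KO at day 4 (0.41). Sox2 did not pass the test (0.15). Trim28, the corepressor that Zfp57 recruits, had a KO effect of 0.76 at day 4. L1td1, an RNA-binding protein, turned down from 0.79 to -0.29.

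Of 22 formative and primed genes 13 had a higher difference and 4 a lower one, with a median of 0.44. The KO was lower for 13 of them at day 2 and for 8 at day 4. Etv4, an Ets factor downstream of FGF, the de novo methyltransferase Dnmt3b and the bHLH factor Tcf15 were below control at day 2, by -1.11, -0.76 and -1.91. At day 4 their effects were 0.031, -0.00028 and 0.091, none past the test. For Tcf15, control day 4 measured 17.5, 15.7 and 28.9 CPM, with replicate 3 above the others, and KO day 4 23.7, 22.3 and 20.3. Foxd3 turned from -0.50 to 1.11, and Dnmt3a from -0.32 to 0.30.

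Otx2 (chr14:48657677-48673819, GRCm38), a homeodomain factor that drives the formative state, ran against this list. It measured 8.81, 8.52 and 9.04 CPM in control day 2, 27.0, 19.7 and 20.7 in KO day 2, 27.6, 37.0 and 24.4 in control day 4 and 20.3, 20.9 and 19.07 in KO day 4. The transcript rose between the days in control cells, by 1.75, while the change in KO cells did not pass the test (-0.16, edgeR adjusted p = 0.28). The KO was higher at day 2 and lower at day 4, by a difference of -1.90 ± 0.19 SE (edgeR adjusted p = 7.1e-08). Pou3f1, Dusp6 and Fgf5 did not pass the test of the difference. Over 17 DNA methylation genes 10 were higher and 4 lower, median 0.42; Dnmt3l, the cofactor of the de novo enzymes, stayed lower in the KO at -1.67 and -0.76.

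Signalling genes gave few directions in common, and the all-gene shares were 23.2% higher and 24.7% lower. On the FGF and ERK feedback list 7 of 25 were higher and 5 lower (median -0.043). Egr1, an immediate early factor on chromosome 18, measured 1.03, 0.385 and 1.11 CPM in control and 0.462, 1.16 and 0.887 in KO cells at day 2, and 29.5, 28.2 and 31.5 in control and 4.50, 3.70 and 2.77 in KO cells at day 4. It rose in both genotypes, by 5.14 in control and 2.09 in KO cells (difference -3.04 ± 0.41 SE, edgeR adjusted p = 4.4e-06). Ier3, another early response gene, had a difference of -2.49 and shared the low replicate 1 of control day 4 (13.5, 42.1 and 38.0 CPM). Spry1 and Phlda1, feedback inhibitors and targets of FGF signalling, had differences of 0.78 and 0.74.

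On the Nodal and activin list 2 of 16 were higher and 5 lower; the higher count was 5 without replicate 2 of control day 4 and 4 without replicate 3 of that group or without replicate 2 of either group of day 2. Lefty1, a secreted Nodal inhibitor, had KO effects of 2.34 at day 2 and 0.72 at day 4. On the BMP and Id list 5 of 16 were higher and 4 lower. Id3 went from -1.15 to 0.32, while Id1, a related inhibitor of bHLH factors, was lower in the KO at both days, by -0.81 and -1.46. Of 18 Wnt genes 7 were higher and 7 lower. Tcf7l1, the repressor Tcf3 of the Wnt pathway, turned from -0.70 to 0.73 (difference 1.43), and Dkk1, a Wnt antagonist, shrank from 2.67 to 0.50. With all 15 libraries in the fit the BMP and Id list had 2 higher and 1 lower, and neither Id1 nor Id3 was called. On the LIF and STAT3 list 7 of 16 were higher and at most 1 lower, with Stat3 itself going from -0.36 to 0.26.

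The transcripts of the autophagy pathway were split. Of 31 core genes 8 had a higher difference, 11 a lower one and 12 did not pass the test, with a median of -0.073. Over all genes 23.2% were higher and 24.7% lower. Atg12, the ubiquitin-like protein that Atg7 activates, and Pik3c3, the lipid kinase Vps34, had differences of -1.05 and -0.79; both lie on chromosome 18. Of the Atg8 family, which Atg7 also activates, Map1lc3b went from 0.24 to -0.25 and Gabarapl1 from 0.078 to -0.51. Gabarapl2 and Map1lc3a went the other way, from -0.25 to 0.24 and from -0.97 to 0.36. Map1lc3a overlapped at day 4, where control replicate 3 (22.3, 22.9 and 40.3 CPM) stood above the other two. Atg5, the E3 partner of Atg12, had a difference of -0.42, Atg101 of -0.53 and Becn1 of 0.23 (0.35 with GC offsets). Ulk1, Atg9a, Atg14 and Atg16l1 were among those that did not pass.

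Selective receptors, which bind cargo and Atg8 proteins at once, were lower in difference for 8 of 17 and higher for 3, with a median of -0.12. Sqstm1, the ubiquitin receptor p62, measured 173, 184 and 172 CPM in control and 215, 208 and 207 in KO cells at day 2, and 306, 293 and 317 in control and 225, 216 and 211 in KO cells at day 4. Its KO effect turned without overlap, from 0.25 to -0.49. Between the days the transcript rose in control cells (0.79), and the change in KO cells (0.047) did not pass the test. Tax1bp1 and Ncoa4, the ferritin receptor, had differences of -0.82 and -0.77. The mitophagy receptors Bnip3l and Fundc1 had -0.94 and -1.14, beside Bnip3. Fkbp8, Phb2 and Wdfy3 moved up, by 0.54, 0.40 and 0.49; with GC offsets Fkbp8 was at 0.14 and was not called.

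Of 30 lysosome genes 14 were higher and 6 lower, with a median of 0.18. Gaa, the acid alpha-glucosidase, Lamp1 and Grn, the progranulin gene, had differences of 0.72, 0.64 and 0.69; with GC offsets that of Gaa was 0.46. Npc1, the cholesterol exporter, on chromosome 18, had -1.15. Cholesterol synthesis genes were higher for 12 of 25 and lower for 1 (Stard4, on chromosome 18), with a median of 0.28. All 25 fell between the days in both genotypes; Srebf2, the master regulator, changed by -1.77 in control and -0.91 in KO cells.

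Basement membrane genes had a higher KO effect at day 4 for the most part: 13 of 19 had a higher difference and 1 a lower one (0 to 2 over the alternatives other than the 1.5-fold test), at a median of 0.51. Fn1, fibronectin, measured 1731, 1808 and 1678 CPM in control and 1755, 1649 and 1690.5 in KO cells at day 2, and 925, 934 and 814 in control and 1508, 1507 and 1512 in KO cells at day 4. The libraries overlapped at day 2, and at day 4 those of the control lay lower (difference 0.79 ± 0.07 SE, edgeR adjusted p = 1.7e-08). Col4a1 turned from -0.38 to 0.51, and Hspg2, perlecan, from -0.18 to 0.80. Epithelial adhesion genes were higher for 12 of 28 and lower for 2. The protease St14 and its inhibitor Spint2 both turned, by 1.17 and 1.27.

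On the fibroblast and feeder list the KO was higher for 20 of 29 at day 2 and for 18 at day 4, with median KO effects of 0.71 and 0.53, against 27.3% and 24.5% of all genes. The difference was higher for 4 members and lower for 7, and for 2 and 2 with all 15 libraries in the fit. Its median over the list was -0.098. That median was 0.125 without replicate 2 of KO day 2 and -0.233 without replicate 1 of KO day 2. Acta2 and Tagln, contractile proteins, had differences of 1.65 and 1.03, and Ctgf, a matricellular protein, of -1.57. With the mean collagen level of each library as a covariate, the basement membrane list had 14 members higher and a median of 0.52. Col1a1, part of that level, changed with day and genotype, while its KO effects did not differ past the test between the days. The covariate could therefore hardly move a difference, and fibroblast content was not tested by it.

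Genes of translation and protein turnover had small differences. Of 57 cytosolic ribosomal protein genes 30 were lower and 2 higher, with a median of -0.19, and the KO was higher for 27 at day 2 and for 4 at day 4. Rpl3 turned from 0.27 to -0.20; Rpl17 and Rps14, at -0.76 and -0.67, lie on chromosome 18. Mitochondrial ribosomal protein genes were higher for 13 of 46 and lower for 2, and complex I genes higher for 9 of 35 and lower for 2. The higher counts were near the 23.2% of all genes, while the lower counts were well under the 24.7% of all genes. The list medians were 0.13 and 0.11. Without replicate 1 of control day 4, 5 complex I genes were higher, and without replicate 1 of KO day 4, 4 were lower. Ndufa4, a cytochrome oxidase subunit often listed with complex I, had -0.72, or -0.47 with GC offsets. Proteasome genes were lower for 12 of 31 and higher for 3. With all 15 libraries in the fit, 18 cytosolic ribosomal and 6 proteasome genes were lower.

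Genes of other states were read as well, beside all-gene shares of 23.2% with a higher and 24.7% with a lower difference. Of 19 tested 2-cell-like genes 17 were lower in the KO at day 4, 16 were lower at day 2, and 4 had a lower difference. Zscan4c, whose near identical copies make its own count uncertain, measured 96.6, 67.7 and 84.4 CPM in control and 10.1, 9.28 and 11.5 in KO cells at day 4 and averaged 9.97 and 2.57 CPM at day 2; its difference was not called with all 15 libraries in the fit. Pramel6, in contrast, fell in control cells to 1.79, 2.54 and 3.91 CPM and less in KO cells, to 11.8, 10.5 and 15.6 CPM. Imprinted genes were higher for 5 of 23 and lower for 11. Dlk1 and Grb10 moved up, by 1.74 and 1.21, and Sgce and Impact, the latter on chromosome 18, down, by -1.14 and -0.90. Of 5 tested Ifitm genes, whose copies share reads, 1 was higher and 1 lower. Ifitm1, the lower one, had KO effects of 2.05 at day 2 and -0.06 at day 4. Germline genes silenced by methylation were higher for 3 of 21 and lower for 6, but 6 were higher without replicate 2 of control day 2 and 8 with GC offsets. NRF2 targets were higher for 5 of 23 and lower for 7.

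Lineage markers gave no common direction of the difference, and the all-gene shares were 23.2% higher and 24.7% lower. Endoderm genes were higher for 7 of 20 and lower for 5, with Gata6, on chromosome 18, going from 0.065 to 0.75 and Pdgfra, not called with all 15 libraries in the fit, from 0.89 to -0.015. Trophoblast genes were higher for 1 of 13 and lower for 2, and each count ran from 1 to 2 over the alternatives other than the 1.5-fold test. In level, the KO was lower for 9 trophoblast genes at day 2 and 10 at day 4, and higher for 2 and 0. For endoderm genes the KO was higher for 10 and 8 and lower for 4 and 2. Of all genes 26.6% and 24.5% were lower and 27.3% and 24.5% higher. Neural genes were higher for 3 of 10 and lower for 1, with 1 higher without replicate 1 of KO day 2. Of 10 primitive streak and mesoderm genes 4 were higher and 2 lower. These counts ran from 1 to 4 and from 0 to 2 over the same alternatives and the median from -0.076 to 0.62; without replicate 1 of control day 4, 1 was higher, and 2 were without replicate 3 of control day 4, replicate 1 of KO day 2, or replicate 1 or 3 of KO day 4. Nes, nestin, had a difference of -1.15. Several members of the streak and neural lists stayed under the count filter.

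Among the named genes with the largest increases, several lay outside these lists. Hrk, a BH3-only activator of apoptosis, measured 2.00, 2.12 and 2.57 CPM in control and 1.13, 1.46 and 1.29 in KO cells at day 2, and 1.29, 1.41 and 1.44 in control and 6.60, 7.40 and 5.67 in KO cells at day 4, so its effect turned without overlap. Cox6a2, the muscle isoform of a cytochrome oxidase subunit, measured 5.86, 4.23 and 5.87 CPM in KO day 4 and means of 0.104, 0.180 and 0.348 CPM in control day 2, KO day 2 and control day 4; without replicate 1 of control day 2 its difference no longer passed the test. Cplx1, a synaptic vesicle protein, Bmp8b, Bglap3, Chga, Ubap1l, Serpinb6c and Hmga1 had differences from 2.37 to 2.92; Serpinb6c and Hmga1 have near copies, so their counts are uncertain. Hmga1 measured 8.70, 4.33 and 9.61 CPM in control and 3.18, 2.02 and 2.71 in KO cells at day 2, and 2.59, 1.97 and 5.96 in control and 7.89, 6.11 and 6.47 in KO cells at day 4, where control replicate 3 stood above the other two. Chga, chromogranin A, turned from -1.05 to 1.51. Tgm1, a transglutaminase, Cpz, Olah, Igsf21 and C4a turned in the same direction, with differences from 1.87 to 2.28; C4a has a near identical copy.

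Largest among the decreases was Cd22, a sialic acid binding lectin known from B cells, at 16.5, 9.65 and 10.2 CPM in control and 1.17, 0.940 and 1.19 in KO cells at day 4, against 0.572, 0.626 and 0.797 in control and 0.822, 0.644 and 1.37 in KO cells at day 2. A2m, a protease inhibitor, measured 13.5, 43.0 and 25.8 CPM in control and 2.96, 2.76 and 3.10 in KO cells at day 4, again lowest in control replicate 1. Slc11a1, a metal ion transporter, turned from 1.34 to -1.75, and Epp13 from 1.97 to -1.24. Slc46a3, Irgm1, Zfp9, Parp14, Clip3 and Fhl4 turned in the same direction, with differences from -2.78 to -2.07.

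Part of the difference followed chromosome 18. Of its 404 tested genes 245 (60.6%) had a lower difference and 13 a higher one, with a median of -0.62. On the other autosomes the medians ran from -0.19 (chromosome 6) to 0.031. On chromosome 6, 35.7% of genes were lower and 15.3% higher. Nanog, Dppa3, Tpi1, Ldhb, Sgce and Atg7 lie there and are not marked in the text. The same holds for A2m, Kdm3a, Vhl, Ndufa4, Tax1bp1, Gabarapl1, Asns and Zfp9, which had a lower difference. Edem1, Phb2 and Tcf7l1, with a higher difference, also lie on chromosome 6. The median KO effect on chromosome 18 was 0.57 at day 2 and 0.0038 at day 4. Its share of all counts was 2.39% to 2.42% in control day 2, 3.58% to 3.59% in KO day 2, 2.98% to 3.02% in control day 4 and 3.05% to 3.12% in KO day 4. The libraries of a group agreed closely and the 4 groups did not overlap. The 8 tested genes of chromosome Y had a median difference of -0.65. Copy number was not measured. With the genes of chromosome 18 left out of the fit, 7191 genes were called.

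The difference also moved with base composition. Across 15417 genes with a transcript in GENCODE M21, Spearman's rho between the difference and transcript GC content was 0.238, a description across genes that share the same 12 libraries. The median difference rose from -0.263 in the tenth of genes with the lowest GC content to 0.241 in the tenth with the highest. Median GC content was 50.40% for the hypoxia-inducible list, 53.40% for the stress response list and 46.20% for the G2 and M phase list. With GC offsets for each library, the same lists had medians of -0.81, 0.70 and -0.48. Those of the glycolysis, basement membrane and formative lists were -0.60, 0.38 and 0.32, against -0.45, 0.51 and 0.44 without the offsets.

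**Figure D5:**
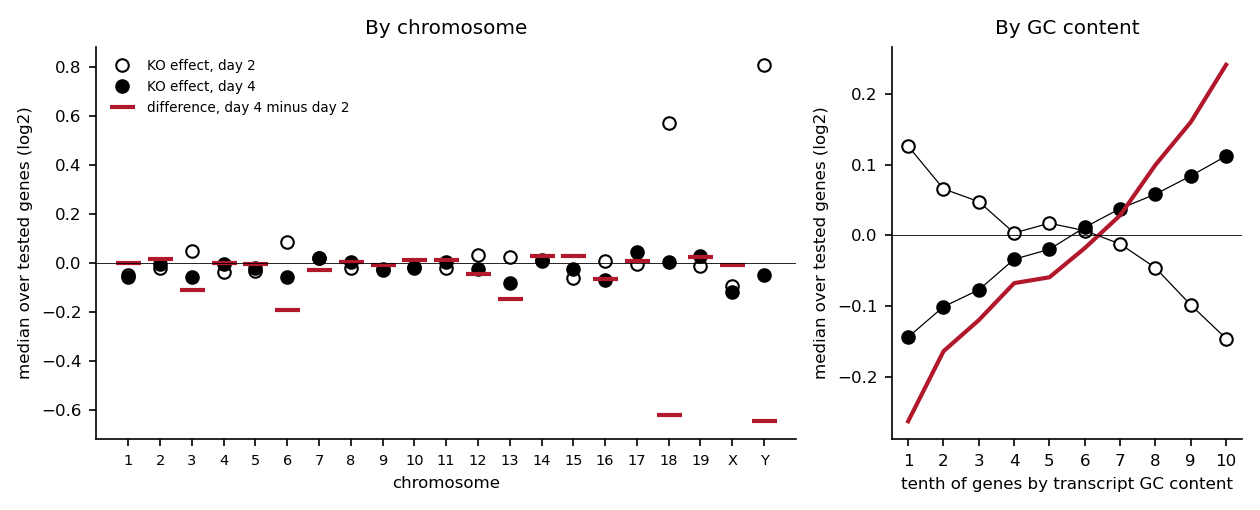
Left, median KO effect at day 2 (open), at day 4 (filled) and their difference (red) over the tested genes of each chromosome, on the log2 scale; right, the same medians over 10 groups of genes of equal size by transcript GC content. Chromosomes 18 and Y stand above 0 at day 2 and near 0 at day 4, and the difference rises with GC content from -0.263 to 0.241.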

How the data were processed

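Poly(A) RNA of 15 samples was sequenced, and the deposited files hold whole read counts per gene symbol, not normalized, as made by the authors. STAR, featureCounts, StringTie and DESeq2 and the builds mm10 and GRCm38 are named in the submitters' processing notes; the sources used here do not give the strand setting of the counting. Samples were grouped by genotype and day from the labels. Of 24982 symbols, 15569 passed edgeR's filterByExpr over the 4 groups (minimum count 10, minimum total 15). A quasi-likelihood model (edgeR 4.0.16, R 4.3.3) with TMM factors and 1 mean per group was fitted to the 12 libraries. The contrast was KO minus control at day 4 minus the same at day 2, with Benjamini-Hochberg adjustment over all tested genes at 0.05. Depth was 14059237 to 23371546 counts per library. In data simulated for this contrast over 15425 genes, 73% of 1.5-fold and 93% of 2-fold changes were recovered and 5.68% of calls were false. The simulation changed 100 genes at each fold, none of them among the lowest counts, with spreads taken from the fit. The deposited data had 47.9% of genes called, so these rates need not hold there or for genes of a few CPM. Replicates differed by more than counting noise (chi-square per degree of freedom 3.201 to 7.005), so none was counted as a duplicate.

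The comparison, the 36 gene lists and the rules were chosen with earlier results of these data known. Genes named were Atg7 and Nanog, then the 10 largest increases and 10 largest decreases that passed the test with at least 5 CPM in the highest group, and 8 turned genes per direction. All members of 5 pluripotency and autophagy lists, and of every other list the 3 of smallest p per direction, could be named too; genes outside these rules are marked in the text. Alternatives were other scaling factors, filters, DESeq2 1.42.0, a replicate block, a collagen covariate, chromosome 18 left out, all 15 libraries, a 1.5-fold test, leaving out each library, and GC offsets, the last chosen after seeing the data. Promoter windows came from RefSeq and gene coordinates from GENCODE M21, both on GRCm38.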

Additional observations from a re-analysis of the deposited data

Results flagged for a closer look

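These results were flagged because the KO effect differed between the days by edgeR's test of the difference itself. At day 4 the effect was higher for 3618 genes and lower for 3845, and it turned for 1771. Nanog had a difference of -0.43.

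The largest increases on the log2 scale were those of Cebpb (4.48), Cox6a2 (3.09), Hrk (3.03), Cplx1 (2.92), Bmp8b (2.62), Bglap3 (2.58), Chga (2.56), Hmga1 (2.46), Ubap1l (2.46) and Serpinb6c (2.37). The largest decreases were those of Cd22 (-3.95), Bnip3 (-3.57), Pygl (-3.33), Epp13 (-3.21), A2m (-3.16), Slc11a1 (-3.09), Egr1 (-3.04), Adm (-3.02), Egln3 (-2.95) and Ndufa4l2 (-2.94). Replicate 1 of control day 4 was the lowest of its group for Bnip3, A2m, Adm, Egln3 and Ndufa4l2, and Egr1 lies on chromosome 18.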

How the results depend on the processing

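The count of 7463 genes was 7458 with RLE factors, 7080 with DESeq2, 7191 without chromosome 18, 7212 with GC offsets (82% of the calls shared) and 5674 with all 15 libraries in the fit (75.8% shared). Leaving out 1 library at a time gave 6933 to 7213 genes for the difference, 7455 to 8544 for KO against control at day 2, 6845 to 7790 at day 4, 11277 to 11858 for the days in control cells and 10550 to 11216 in KO cells. The same step gave 1531 to 1741 turned, 964 to 1133 grown and 1089 to 1262 shrunken effects.

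Against a 1.5-fold change the counts were 1421 for the difference (40.5% of them higher, 48.5% without that limit), 1323 and 936 for the KO at days 2 and 4, and 5323 and 4183 for the days in control and KO cells, with 13 turned, 119 grown and 146 shrunken effects. The collagen covariate gave 3611 and 2831 for the KO at days 2 and 4, 2926 and 2255 for the days in control and KO cells, and 75 turned effects. For the difference it gave 7535 genes. Collagen level changed with day and genotype, so the covariate overlaps with the groups. All 15 libraries gave 1118 turned, 738 grown and 821 shrunken effects. With GC offsets the differences of Tead2 (-0.015) and Atg2a (-0.018) reversed. The cause was not tested.

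Replicate numbers did not pair the libraries: 18 same-numbered pairs correlated at -0.109 to 0.125, and 5 of 12 libraries matched their own number best. The replicate block gave 7366 genes. Genes of a few CPM, such as Cox6a2 and Cebpb, are limited by depth.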
